A study of Homo sapiens with 6 samples.

Results

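Isolated open regions are stretches of accessible chromatin that have no other such region close by on either side. They were taken by position alone, as the autosomal regions of the deposited table whose gaps to both neighbouring regions exceeded 50000 bp, with the first and last region of each chromosome left out. This rule gave 2511 of 118556 regions (2.12%), or 2.19% of the 114670 autosomal regions. The assay was FAST-ATAC, which uses Tn5 transposase to cut and tag open DNA in permeabilized cells, and the cells were of the WA09 human embryonic stem cell line. Cells were sorted by flow cytometry on antibodies to pluripotent cell surface antigens into a GCTM-2highCD9highEPCAMhigh population (high) and a GCTM-2midCD9mid population (mid, called low in the sample titles), with 3 biological replicates of each. No other treatment separated the populations, and all 6 libraries came from 1 line. The comparison asked which regions differed in accessibility between the stem cells with the strongest and those with intermediate surface antigen levels. Because the cells were measured in bulk, fewer cells with a region open and less cutting per cell cannot be told apart.

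Open chromatin marks DNA from which nucleosomes have been displaced, mostly at promoters, enhancers and insulators. Promoters and clustered enhancers crowd the gene-rich parts of a genome, whereas a region that stands alone usually lies in a gene-poor stretch, where distal regulatory elements and binding sites of architectural proteins are found. The table gives positions on the hg19 build without gene names. An annotation of that build was not used here, so regions are named by position, none was assigned to a gene, and the cell type was not checked against marker genes.

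The libraries held 15486251 to 29025274 counted reads over all regions, of which 235230 to 385647 fell in isolated regions. Isolated regions took 1.71%, 1.52% and 1.47% of the reads in high replicates 1, 2 and 3 and 1.31%, 1.33% and 1.396% in mid replicates 1, 2 and 3. Every high library was thus above every mid library. The mean share was 1.56% ± 0.124 in high and 1.35% ± 0.0437 in mid (SD, n = 3 each), a difference of 0.219 percentage points. The gap between same-numbered libraries was unequal, at 0.391, 0.192 and 0.0748 percentage points for replicates 1, 2 and 3. High replicate 1 stood furthest from the others, and of the 2511 isolated regions, 1120 had their highest level in that library.

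**Figure D1:**
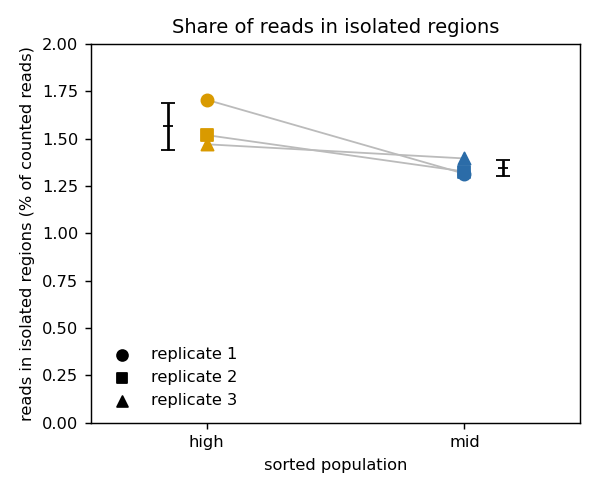
Share of all counted reads (%) that fell in the 2511 isolated regions, for each of the 6 libraries, with points joined by replicate number and the mean and SD (n = 3) of each population beside them. The high libraries lie between 1.47% and 1.71%, all above the mid libraries at 1.31% to 1.396%, and the gap is widest for replicate 1.

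Isolated regions were narrower and less accessible than the rest. Their median width was 727 bp (quartiles 600 and 993 bp), against 879 bp for all regions, and the widest spanned 6214 bp. Their median level was 2.86 CPM (counts per 1000000 reads, scaled by the trimmed mean of M values, TMM), against 4.004 CPM for all regions, and per kilobase of width it was 3.86 against 4.43 CPM. The median isolated region held 385 reads over the 6 libraries and the median of all regions held 546, so single isolated regions were measured with fewer reads. The nearer neighbour lay at a median distance of 63486 bp, against 6830 bp for autosomal regions as a whole. For 310 isolated regions it was over 100000 bp away, for 44 over 200000 bp and for 9 over 500000 bp.

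As a set, isolated regions were shifted towards higher accessibility in the high population. Their median log2 fold change (high over mid) was 0.21, with quartiles of -0.05 and 0.47, whereas the median over all regions was 0.03 and over the other autosomal regions 0.03. Of the 2511, 1791 (71.3%) had a positive fold change, compared with 53.5% of all regions. The same-numbered pairs gave isolated medians of 0.38, 0.17 and 0.07 for replicates 1, 2 and 3, and all-region medians of 0.01, 0.03 and 0.03. The shift was positive in each pair and differed severalfold in size between them. In 924 isolated regions (36.8%) all 3 pairs were higher in high and in 270 (10.8%) all 3 were lower, against 25.3% and 22.4% of all regions.

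Single regions were tested with the quasi-likelihood test of edgeR over all 118556 regions, with the replicate number as a block, and called at an adjusted p below 0.01. Higher accessibility in high was called for 104 isolated regions (4.14%), against a background of 2.32% of all regions. Higher accessibility in mid was called for 28 (1.12%), against 3.77% of all regions. High thus made up 78.8% of the 132 isolated calls and 38.1% of all calls. Changes of over 2-fold were called for 41 isolated regions (1.63%) in the direction of high, where the background was 0.595%, and for 9 (0.358%) in the direction of mid, where it was 0.243%. Complete separation of the 3 high from the 3 mid libraries, with high above, was seen in 514 isolated regions (20.5%) against 12.9% of all regions. With mid above it was seen in 117 (4.66%) against 13.0%.

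Both counts depended on the block and on single replicate pairs. Without the replicate block 14 isolated regions (0.558%) were called for high, against 0.236% of all regions, and 5 (0.199%) for mid, against 1.11%. Without the replicate 1 pair 50 isolated regions (1.99%) were called for high, against 1.41% of all regions, and 40 (1.59%) for mid, against 3.66%. The isolated median was then 0.10, with 0.02 over all regions. Leaving out high replicate 1 alone gave 49 and 41 isolated calls, where 1.39% and 3.83% of all regions were called, and leaving out mid replicate 1 alone gave 60 and 33, against 1.71% and 3.23%. In a fit without a single library, the unpaired library is taken up by its own block term. Such fits therefore largely repeat the fit without the pair. Calls over the whole table dropped most without replicate 2. Without that pair there were 23 and 4 isolated calls, against 0.313% and 0.369% of all regions. Without high replicate 2 alone there were 25 and 5, against 0.364% and 0.708%, and without mid replicate 2 alone 23 and 4, against 0.313% and 0.364%. Scaling by total counts alone turned the balance of the whole table, with 4.19% of all regions called for high and 2.68% for mid, and moved the median over all regions to 0.12. The isolated calls were then 188 (7.49%) and 17 (0.677%), so that high made up 91.7% of them. DESeq2 gave an adjusted p to 842 isolated regions, and called 37 of them (4.39%) for high and 18 (2.14%) for mid, against 1.68% and 6.42% of all regions with an adjusted p. High made up 67.3% of these isolated calls. Of the 104 regions called for high, 41 had no adjusted p from DESeq2, as had 7 of the 28 called for mid.

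The 104 regions called for high had log2 fold changes of 0.49 to 2.05 with a median of 0.90, and 87 of them showed no overlap between populations. In 89 of the 104 the highest level was in high replicate 1, as it was in 77.0% of all regions called for high. The 28 regions called for mid had log2 fold changes towards mid of 0.50 to 1.25 in size, with a median of 0.73, and 25 showed no overlap. The test itself favours such separation, so the counts without overlap add no support to the calls. The regions called for mid were the wider and stronger ones, with a median width of 1781 bp and a median level of 21.6 CPM, against 901 bp and 4.87 CPM for those called for high and 719 bp and 2.78 CPM for isolated regions not called. Regions called for mid over the whole table were also wide, with a median of 2409 bp.

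Distance to the nearer neighbour and change in accessibility moved together over all autosomal regions. The median log2 fold change was -0.04 for regions with a neighbour within 1 kb, 0.01 for 5 to 10 kb, 0.09 for 10 to 25 kb, 0.17 for 25 to 50 kb and 0.21 for 50 to 100 kb. Among the 266 isolated regions at 100 to 200 kb it was 0.20, and among the 44 at over 200 kb it was 0.02, below the bins from 10 kb on. Calls for mid went from 5.196% of regions within 1 kb of a neighbour to 1.35% at 25 to 50 kb and 1.14% at 50 to 100 kb. Calls for high went from 1.75% to 3.85% and 4.09% over the same bins. Of the 44 most remote regions, 5 (11.4%) were called for high and 0 for mid, against 2.32% and 3.77% of all regions. A set of 44 is too small to read 0 calls for mid as a difference. Without the replicate 1 pair the medians were -0.03 within 1 kb, 0.10 at 25 to 50 kb, 0.11 at 50 to 100 kb, 0.05 at 100 to 200 kb and 0.03 at over 200 kb. The last bin was unsteady, at 0.14 without the replicate 2 pair and 0.01 without the replicate 3 pair.

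**Figure D2:**
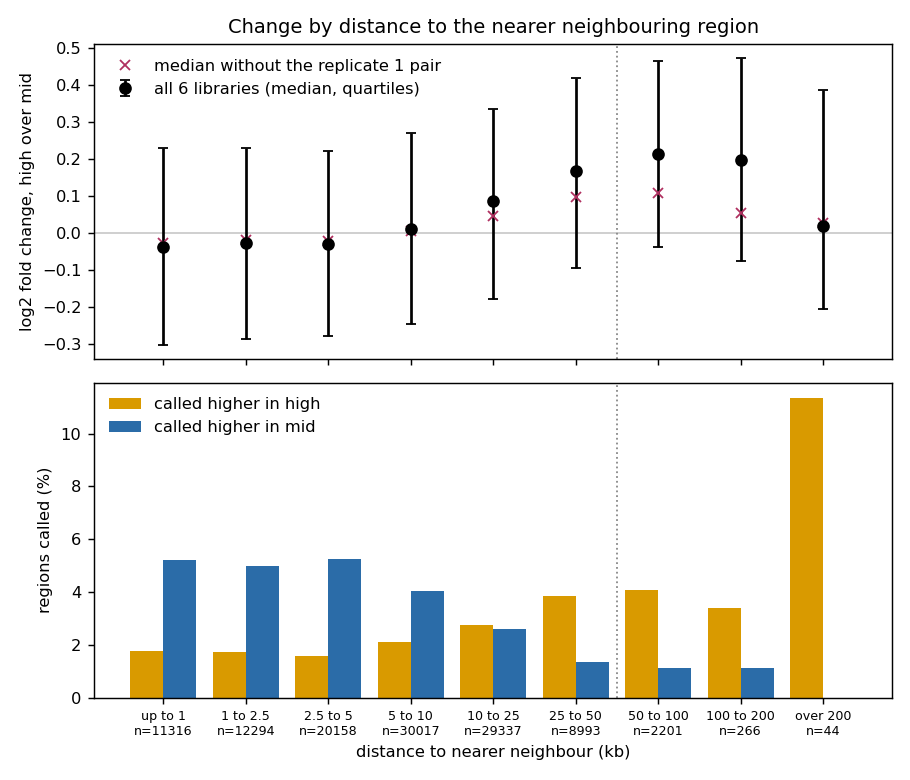
Upper panel, log2 fold change (high over mid) by distance to the nearer neighbouring region in kb, as the median and quartiles of each bin from all 6 libraries and the median without the replicate 1 pair (crosses). Lower panel, regions called higher in high or in mid (% of the bin), with the 50000 bp limit dotted and the number of regions under each bin. The median rises from -0.04 to 0.21 up to 50 to 100 kb and is 0.02 in the last bin. There 5 of 44 regions (11.4%) were called for high, against 2.32% of all regions.

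Values at the border of the rule were few. The regions just inside were chr16:55223965-55224526, chr1:108231557-108232235 and chr12:30846870-30850344, with nearer neighbours at 50005 to 50014 bp and log2 fold changes of -0.35, 0.15 and -0.09. The regions just outside were chr6:83397452-83398061, chr16:63323586-63324780 and chr16:63272863-63273629, at 49956 to 49964 bp, with 0.19, 0.41 and 0.65, so that these 3 lay above the 3 just inside. A limit of 25000 bp took in 11504 regions and a limit of 100000 bp left 310.

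Width and level moved with the result, since narrow and weak regions had higher fold changes across the whole table. Within classes of width the isolated regions still had the higher medians. In the narrowest class, up to 663 bp, the isolated median was 0.20 and that of all regions 0.09. In the widest class, over 2150 bp, the medians were 0.08 and -0.23, and there 10 of 105 isolated regions were called for high and 10 for mid (9.52% each), where 1.71% and 22.4% of all regions of that class were called. Classes of level gave the same order. Among regions of up to 2.44 CPM the medians were 0.25 and 0.14, and among regions over 21.2 CPM they were -0.01 and -0.21. In that strongest class 9.72% of 144 isolated regions were called for mid, against 23.4% of all. Offsets that removed the trend with width or with level across all regions left isolated medians of 0.15 in both cases, with 0.01 and 0.00 over all regions.

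At a width of 1500 bp, a border chosen after the values were seen, the isolated regions divided into 2266 narrower and 245 wider ones. The narrower had 85 calls for high (3.75%) and 12 for mid (0.530%), and the wider had 19 (7.76%) and 16 (6.53%). Of all regions, 2.32% of the narrower were called for high and 0.921% for mid, and 2.30% and 14.8% of the wider. The wider isolated regions called for mid had a median level of 30.8 CPM and a median change of -0.56. The narrower ones had 3.65 CPM and -1.11. Weak regions have larger standard errors and need a larger change to be called. These medians over called regions therefore do not show that weak regions changed more.

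**Figure D3:**
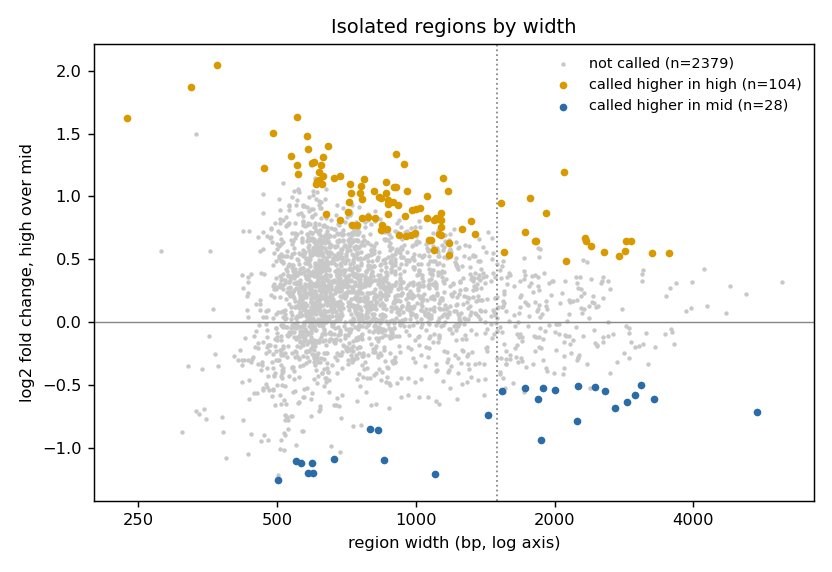
Log2 fold change (high over mid) of each isolated region against its width in bp on a log axis, with regions called higher in high, called higher in mid and not called in separate colours. Calls for high spread over the narrow and wide regions with a median width of 901 bp, whereas calls for mid have a median width of 1781 bp and include the widest called region, at 5494 bp.

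Isolated regions were spread unevenly over the chromosomes. They made up 5.96% of regions on chromosome 21 (61 of 1023), 3.06% on chromosome 14, 2.92% on chromosome 13 and 2.90% on chromosome 4, but 1.07% on chromosome 19 and 0.855% on chromosome 22 (16 of 1871). Across the 22 autosomes the percentage went down as the number of genes per megabase went up (Spearman rho = -0.82, a description over chromosomes that share the same 6 libraries). Isolated regions had the higher median fold change on 22 of 22 autosomes when set beside the other regions of the same chromosome, by 0.0803 to 0.282. The isolated median itself was positive on 18, from 0.32 on chromosome 4 and 0.28 on chromosomes 13 and 1 down to -0.11 on chromosome 17, -0.27 on chromosome 22 and -0.33 on chromosome 19. Base composition moved with it, as the isolated median was lower on chromosomes of higher GC content (rho = -0.75), and so was that of the other regions (rho = -0.95). The part of base composition in the difference was not tested. Gene density and GC content were those of the GRCh38 chromosomes, since only whole chromosomes were described.

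**Figure D4:**
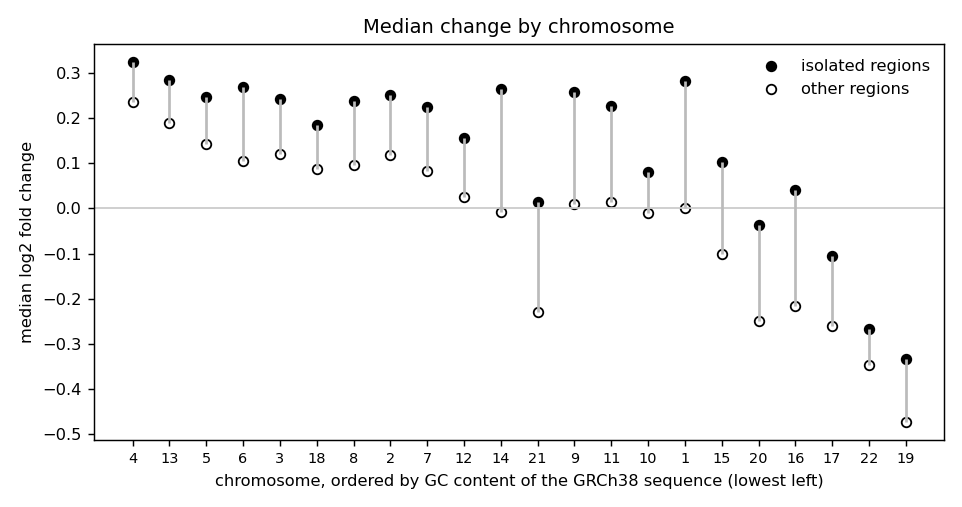
Median log2 fold change (high over mid) of isolated regions and of other regions for each autosome. The isolated median lies above the other median on 22 of 22 autosomes, and is below 0 on chromosomes 17, 19, 20 and 22.

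Calls for high outnumbered those for mid among the isolated regions of 15 autosomes, and calls for mid outnumbered those for high on 6. Over all regions, calls for high were the more frequent on chromosomes 2 to 8, 13 and 18, and calls for mid on the other autosomes. Of the 210 isolated regions of chromosome 4, 14 were called for high and 0 for mid. Of all its regions, 4.84% and 0.498% were called. Chromosome 2 had 12 and 2 of 203, against 2.78% and 1.20%. Chromosome 1, with one of the highest isolated medians, had 6 and 7 of 163, against 2.17% and 3.84%. Chromosome 15, with a median of 0.10, had 0 and 2 of 73, against 0.408% and 3.53%. Differences between single chromosomes rest on few calls and were not tested. Chromosomes 17, 19, 20 and 22 together held 6.29% of the isolated regions and 9.82% of all regions. They are the autosomes with a negative isolated median, so a balance of calls towards mid follows in part from the choice. They held 4 of the 104 calls for high and 10 of the 28 for mid. They also held 1.27% of the calls for high and 43.0% of the calls for mid over the whole table. With a separate offset for each chromosome, a setting added after the values were seen, 70 isolated regions (2.79%) were called for high and 26 (1.04%) for mid, against 1.47% and 2.83% of all regions. The isolated median was then 0.16, and that of all regions 0.01.

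The called regions named by rule were picked by the test, with all 3 pairs alike. Separate populations in them largely follow from that choice. Among isolated regions called for high with all 3 pairs in that direction, chr4:164737223-164738126, 904 bp wide, had the smallest adjusted p. It stood at 51.1, 32.3 and 20.4 CPM in high replicates 1 to 3 and at 10.9, 13.2 and 14.6 CPM in mid. The populations did not overlap, although replicate 3 differed far less than replicate 1. The means were 34.6 ± 15.5 and 12.9 ± 1.83 CPM (SD, n = 3), with a log2 fold change of 1.34 ± 0.17 (SE, adjusted p = 1.88e-07). Without the replicate 1 pair it was 0.86 (adjusted p = 1.6e-07), and DESeq2 did not call it (adjusted p = 0.045). On the same chromosome, chr4:30150177-30152269 covered 2093 bp and stood at 17.6, 13.5 and 10.3 CPM in high and 5.11, 7.36 and 5.40 CPM in mid. All high libraries were above all mid libraries, with a change of 1.20 ± 0.18 (adjusted p = 3.5e-06).

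The region chr6:83668560-83670331, 1772 bp wide, was the most even of the named regions called for high. Its levels were 22.03, 18.03 and 17.7 CPM in high and 9.95, 9.05 and 9.93 CPM in mid. Each population was tight and the means, 19.3 ± 2.41 and 9.64 ± 0.516 CPM, differed by 0.99 ± 0.15 on the log2 scale (adjusted p = 7.13e-06). This region and chr4:30150177-30152269 kept their call in all 21 alternative fits. Among those fits, the ones without a single library largely repeat the ones without its pair. The region chr3:98762870-98763422, 553 bp wide, was among both the largest changes and the smallest adjusted p-values. Its levels were 8.96, 4.61 and 3.96 CPM in high and 1.502, 1.60 and 2.26 CPM in mid, and its change was 1.63 ± 0.24 (adjusted p = 2.88e-06). Again the highest value was in high replicate 1.

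The 5 largest fold changes towards high were in regions of 236 to 553 bp, narrower than the isolated median. Ranking by size of change favours regions with noisy estimates, so this is not shown to be a trait of narrow regions. At chr20:54567559-54567928, 370 bp wide, high replicates 1 to 3 had 2.23, 0.923 and 0.667 CPM and mid replicates 0.150, 0.563 and 0.192 CPM. These levels rest on 39, 15 and 18 reads in high and 4, 13 and 5 reads in mid, and the change was 2.05 ± 0.49 (adjusted p = 0.00316). The populations were separate, but the call was lost without the replicate 1 pair, where the change was 1.13 (adjusted p = 0.19). At chr1:49910266-49910501, the narrowest isolated region at 236 bp, the high replicates had 4.11, 1.23 and 0.741 CPM and the mid replicates 0.526, 0.519 and 0.613 CPM. High replicate 1 carried most of its change of 1.62 ± 0.40 (adjusted p = 0.00412), which without the replicate 1 pair was 0.71 (adjusted p = 0.384). At chr16:20517520-20518009, 490 bp wide, the levels were 10.5, 5.11 and 3.26 CPM in high and 1.502, 1.64 and 2.95 CPM in mid. Its change of 1.51 ± 0.26 (adjusted p = 5.37e-05) fell to 0.80 without that pair and was no longer called (adjusted p = 0.0295), and without the replicate 3 pair it was 2.26 (adjusted p = 7.8e-13).

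In the 28 regions called for mid, the highest library was mid replicate 1 in 17, mid replicate 2 in 10 and mid replicate 3 in 1. At chr1:149513304-149514403, 1100 bp wide, the high libraries had 3.37, 3.75 and 4.78 CPM and the mid libraries 9.09, 9.52 and 8.85 CPM. There was a clear gap between the populations, with means of 3.97 ± 0.729 and 9.15 ± 0.339 CPM (SD, n = 3) and a change of -1.20 ± 0.19 (adjusted p = 9.38e-06). At chr3:120989754-120990351, 598 bp wide, the levels were 1.997, 3.75 and 2.33 CPM in high and 5.82, 7.05 and 5.37 CPM in mid. In both populations replicate 2 was the highest, and the change was -1.20 ± 0.21 (adjusted p = 5.02e-05). Both regions kept their call in all 21 alternative fits, near repeats included.

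Among the named regions called for mid, wide ones with high levels had smaller log2 differences and smaller standard errors. The wide ones were named for small p-values and the weak ones for large changes. The contrast therefore follows in part from the rules. The 5494 bp region chr16:1659768-1665261 stood at 47.5, 56.8 and 59.3 CPM in high and 98.2, 88.7 and 81.6 CPM in mid, without overlap, and changed by -0.71 ± 0.12 (adjusted p = 2.98e-05). The 2232 bp region chr17:28255894-28258125 stood at 15.6, 15.1 and 17.9 CPM in high and 31.2, 25.8 and 26.9 CPM in mid, and changed by -0.79 ± 0.14 (adjusted p = 7.38e-05). Both lost the call without the replicate 2 pair, with changes of -0.75 and -0.79. The offsets on width also ended the call of chr16:1659768-1665261, at -0.33 (adjusted p = 0.0302), and those on level gave it a change of -0.42 (adjusted p = 0.00625). With an offset for each chromosome chr17:28255894-28258125 kept its call at -0.52 (adjusted p = 0.00591).

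Weak regions called for mid included chr17:21739895-21740477, with 1.43, 1.85 and 1.41 CPM in high and 3.19, 4.54 and 3.10 CPM in mid (log2 fold change -1.20 ± 0.25, adjusted p = 0.000585). It lost the call in 4 of 20 alternative fits, those with no block (adjusted p = 0.0116) and without replicate 2 of high, mid or both (adjusted p = 0.031 to 0.0502). The fits without replicate 2 are near repeats of each other. The nearer neighbour of chr17:21739895-21740477 was 162433 bp away, the largest distance among regions called for mid. The largest change towards mid, at chr7:71641866-71642367, was from 0.799, 0.738 and 0.815 CPM in high to 2.03, 1.64 and 1.95 CPM in mid (-1.25 ± 0.34, adjusted p = 0.00894). At chr19:32663602-32664195 the levels were 1.08, 1.17 and 1.30 CPM in high and 2.48, 3.07 and 2.30 CPM in mid (-1.12 ± 0.29, adjusted p = 0.00603). The populations were separate in each of these regions, which largely follows from how they were picked. The last 2 were close to the threshold and lost the call in 11 and 10 of 19 alternative fits that gave an adjusted p. Those counts include near repeats. With an offset for each chromosome the change at chr19:32663602-32664195 was -0.63 (adjusted p = 0.156).

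**Figure D5:**
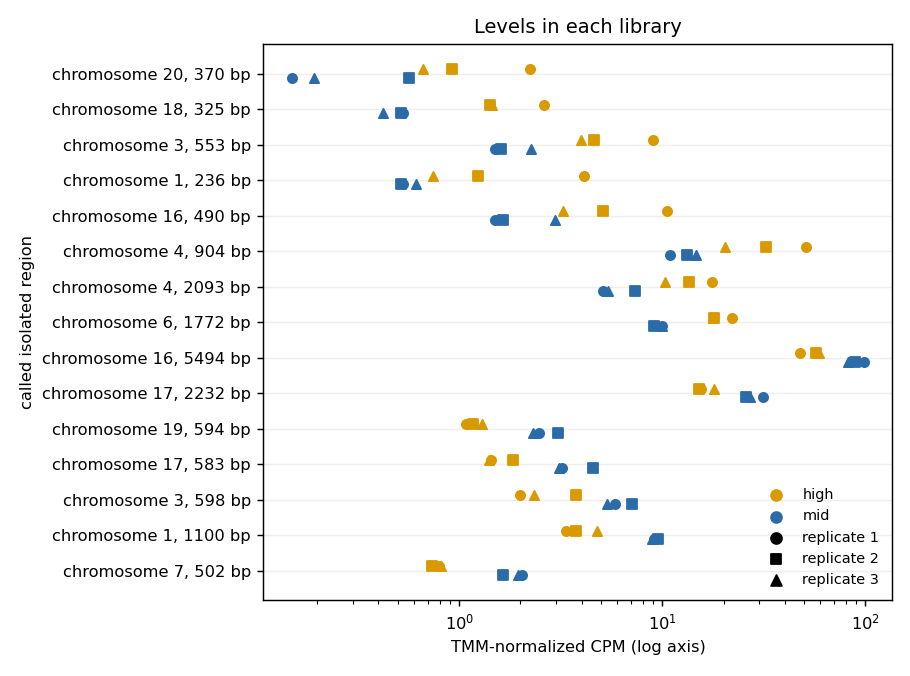
TMM-normalized CPM on a log axis in each of the 6 libraries for the 15 called isolated regions described in the text, with colours for the population and symbols for the replicate number. In every region the 3 libraries of one population lie on one side of the other 3, and high replicate 1 is the highest library in each of the 8 regions called for high. The regions were picked as called with all 3 pairs alike, so this separation largely follows from the choice.

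The most accessible isolated regions mostly did not pass the test. The strongest, chr2:136287344-136290167, had 102, 81.9 and 77.4 CPM in high and 116, 92.1 and 99.7 CPM in mid, and the populations overlapped (log2 fold change -0.24, adjusted p = 0.149). The next, chr3:98619238-98621532, had means of 82.5 ± 10.7 and 78.1 ± 8.10 CPM (0.08, adjusted p = 0.706). Of the 5 with the highest level, chr16:1659768-1665261 was called, and the others had adjusted p-values of 0.149 to 0.706. The widest isolated region, chr7:113722533-113728746 with 6214 bp, had 74.5 ± 14.6 CPM in high and 58.9 ± 5.05 CPM in mid (0.32, adjusted p = 0.0609). The offsets on level raised this change to 0.61 (adjusted p = 0.000132), and those on width to 0.74 (adjusted p = 1.5e-05).

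Of the 5 regions farthest from any neighbour, all but the fifth had negative log2 fold changes, and with all libraries only the fifth was called. The most remote, chr7:57612625-57613114, lay 1437900 bp from its nearer neighbour and had 1.34 ± 0.293 CPM in high and 1.91 ± 0.392 CPM in mid (log2 fold change -0.53, adjusted p = 0.259). The next, chr11:49319461-49320088, was 1124467 bp away and differed by -0.02 (adjusted p = 0.963). Neighbours of each other across a gap of 1085936 bp, chr16:33293724-33294449 and chr16:34380386-34381050 differed by -0.31 (adjusted p = 0.415) and -0.66 (adjusted p = 0.0313). Without the replicate 1 pair both were called for mid, at -0.94 (adjusted p = 0.00367) and -0.85 (adjusted p = 0.0061). The gap on the other side was 5759569 bp at chr7:57612625-57613114, 6042694 bp at chr11:49319461-49320088 and 12207098 bp at chr16:34380386-34381050. A gap is a stretch without a called and kept region, and whether reads can be placed in such long gaps was not checked.

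The fifth most remote was the exception. At chr18:14784002-14784326, 325 bp wide and 623171 bp from its nearer neighbour, the levels were 2.62, 1.41 and 1.44 CPM in high and 0.526, 0.519 and 0.422 CPM in mid. The mid libraries were close together and all high libraries were above them, with a change of 1.87 ± 0.38 (adjusted p = 0.000432). Over the 19 isolated regions with a gap of more than 1000000 bp on at least 1 side, the median log2 fold change was -0.03, 8 were positive, and 1 was called for high and 0 for mid. Of all regions 2.32% and 3.77% were called, and 19 regions are too few to set beside these shares. The called region, named after its values were seen, was chr11:55362783-55363251, with 122, 55 and 74 reads in high and 39, 48 and 45 reads in mid. Its means were 4.36 ± 2.27 and 1.76 ± 0.308 CPM (SD, n = 3) without overlap, and its change was 1.23 ± 0.25 (adjusted p = 0.000572).

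Isolated regions often followed each other along a chromosome. Of the 2511, 1329 stood singly between clustered regions, and 1182 belonged to 463 runs of 2 or more consecutive isolated regions. The median log2 fold change was 0.19 for single ones, 0.23 in runs of 2 to 4 and 0.24 in runs of 5 or more. In the 26 runs of 5 or more, 77.8% of 158 regions were positive, with 10 called for high and 0 for mid. Of all isolated regions 4.14% and 1.12% were called, and of all regions 2.32% and 3.77%. The difference between runs and the other isolated regions rests on few calls and was not tested. The longest run held 9 regions over 600 kb, at chr16:61165207-61765458. Of these, 7 were higher in high, but 0 were called (smallest adjusted p = 0.0346), and their changes ranged from -0.76 to 0.58.

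Neighbouring regions had related fold changes even across long gaps. Adjacent regions of the table had log2 fold changes that correlated with r = 0.52 over 5747 pairs within 1 kb, 0.40 at 25 to 50 kb, 0.36 over 9353 pairs at 50 to 100 kb and 0.33 over 2699 pairs farther apart. These are correlations over regions that share the same 6 libraries, and are given as a description. For the 104 isolated regions called for high, the nearer neighbour had a positive change in 86 (82.7%) with a median of 0.29, and it was itself called for high in 8 and for mid in 0. For the 28 called for mid, the nearer neighbour was positive in 5 (17.9%) with a median of -0.33, and was called for mid in 3 and for high in 0. Around the 2379 isolated regions not called, it was positive in 71.0% with a median of 0.21, and was called for high in 104 and for mid in 31. Of all regions, 2.32% were called for high and 3.77% for mid.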

How the data were processed

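The authors deposited 1 table of read counts per open region for 6 libraries. Per the labels and the study's methods, reads were aligned to hg19 with BWA 0.7.15, shifted to the Tn5 cut site and stripped of duplicates, and regions were called with MACS on pooled replicates, merged between populations and freed of ENCODE blacklist intervals. A gap is therefore a stretch without a called and kept region. Starts were read as counting from 0 and are given 1-based. Counts of all 118556 regions were fitted in edgeR 4.0.16 (R 4.3.3; quasi-likelihood test, TMM, no filter) with replicate number as a block. Deviations of same-numbered libraries from their population means correlated with r = 0.30, 0.19 and 0.23, so the numbers in the titles were taken to pair the libraries. Adjusted p-values are Benjamini-Hochberg over all regions, and a standard error is the absolute log2 fold change over the square root of F. P-values rest on the spread between these libraries of 1 line that is left after the block, with information shared over regions. SD is over 3 libraries and includes the spread between replicates that the block removes. Regions were named by fixed rules: the 5 largest changes and 4 smallest p-values in each direction with all pairs alike, the 5 strongest, 5 most remote and 3 widest, the longest run, and 3 on each side of the limit. Members, rules and lists were chosen with earlier results of these data known. Alternatives changed scaling, filter, offsets, test (DESeq2 1.42.0), threshold, gap and libraries. The test was checked on simulated counts.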

Additional observations from a re-analysis of the deposited data

How the results depend on the processing

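No named region with a call changed direction and no called isolated region was called the other way in any of the 21 alternative fits, and the isolated median stayed above the all-region median in each. Fits without a single library largely repeat those without its pair, so the 21 are not separate checks. Counts of calls were less stable. Of the 2511 isolated regions, 104 were called for high and 28 for mid, against 2747 and 4472 of all 118556. The fit with no replicate block gave 14 and 5, against 280 and 1312 of all regions. Total counts alone gave 188 and 17, against 4971 and 3179. An adjusted p below 0.05 gave 275 and 60, against 7145 and 8391. DESeq2 gave 37 and 18, against 990 and 3776 of all regions with an adjusted p. A gap over 25000 bp took in 11504 regions, with 450 and 149 calls, 2999 regions without overlap and a share difference of 0.893 percentage points. A gap over 100000 bp left 310 regions, with 14 and 3 calls, 82 without overlap and 0.0214 points. These figures differ since the number of members differs. The calls over all 118556 regions were the same 2747 and 4472. Of all regions, 15330 (12.9%) showed no overlap with high above and 15408 (13.0%) with mid above. Of the 2511 isolated regions these were 514 (20.5%) and 117 (4.66%). The counts of 2999 and 82 pool both directions. Pooled in this way, the share without overlap was close to that of all regions at each gap, so only the direction differed. Leaving out libraries or pairs gave 23 to 149 calls for high and 4 to 41 for mid. Over all regions these fits called 371 to 3815 for high and 432 to 5500 for mid. The isolated median was then 0.10 to 0.30 and the share difference 0.134 to 0.291 points. The cause of these differences was not tested. Regions without overlap numbered 816 to 1308, against 631 with all libraries. Fewer libraries meet the condition of complete separation more easily, so those counts cannot be compared with 631. Without the replicate 1 pair, 40 of the 50 calls for high and 20 of the 40 for mid were also calls with all libraries. Upper-quartile and relative log expression size factors, a likelihood ratio test, low-count filters, offsets on width or level and autosomal regions alone gave 86 to 147 and 23 to 34 calls. Over all regions tested in these fits the calls were 2366 to 3757 for high and 2841 to 5676 for mid. DESeq2 gave no adjusted p to 1669 isolated regions. The median isolated region rests on 385 reads over 6 libraries, the size of change that this depth can show was not measured, and intervals from counts would cover counting error only.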
